A study of Sus scrofa with 48 samples.

Results

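The probes of 6 pig genes known from work on meat quality were described in gluteus muscle (GM), liver and kidney: the calcium channel gene RYR1, the calcium pump genes ATP2A1 and ATP2A2, the calpain gene CAPN3, the calpain inhibitor gene CAST and the AMPK subunit gene PRKAG3. They were found through the accession that the array design gives for each probe. Of the 43603 different probes on the array, 2628 could be paired with a gene name, and these belonged to 1862 genes. Of the 6 genes, 5 were represented, by 6 probes: A_72_P088506 for RYR1, A_72_P303154 for ATP2A2, A_72_P146531 and A_72_P175776 for CAST, A_72_P088326 for CAPN3 and A_72_P223232 for PRKAG3. No probe could be paired with ATP2A1, so the pump of fast muscle fibres was not analysed here.

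In skeletal muscle, calcium leaves the sarcoplasmic reticulum through the ryanodine receptor RYR1 to start a contraction, and the SERCA pumps return it, SERCA1 (ATP2A1) in fast fibres and SERCA2 (ATP2A2) in slow fibres, in the heart and in most other tissues. Calpains are proteases that calcium activates, calpastatin (CAST) inhibits some of them, and CAPN3 is a calpain found mainly in skeletal muscle. PRKAG3 encodes the γ3 regulatory subunit of AMPK, the kinase that senses the energy state of the cell, and is found mainly in skeletal muscle rich in fast glycolytic fibres. Known variants of RYR1 and PRKAG3 affect stress response and glycogen content of pig muscle, and calpains and calpastatin act on the tenderness of meat after slaughter.

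RNA of the 3 tissues came from the same 16 Swiss Large White F2 pigs. The founder (F0) boars had received either a standard diet, giving rise to the F2 C offspring, or the same diet with added methionine, choline, betaine, vitamins B6 and B12 and folate, giving rise to the F2 E offspring. The F1 and F2 generations of both lines were fed a standard diet. Each line had 8 pigs, 4 barrows and 4 females, with 1 array for each pig and tissue, or 48 arrays in all. The sires and litters of the 16 pigs were not given. Each line had fewer F1 sires and fewer sows than 8, so some of its 8 pigs shared a sire and some shared a dam. The 8 pigs of a line were thus not independent of each other, and ancestry and the diet of the founder boars cannot be told apart.

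GM arrays had 18948 to 28754 probes well above background, liver arrays 24128 to 30814 and kidney arrays 25071 to 36804. In GM and kidney each slide of 4 arrays held pigs of 1 line and of 1 of 2 series of pig numbers, a lower and an upper one, so slide and line cannot be told apart within a series. The local background in GM was 14 to 24 in F2 C and 26 to 28 in F2 E, without overlap. Of the skeletal muscle markers, 13 of 13 were higher on every GM array than on any other array, and 7 of 7 hepatocyte markers and 3 of 4 kidney markers (all but SLC22A6) separated their own tissue in the same way. In liver F2 C replicate 1 the log2 of the summed hepatocyte markers was only 18.35, against 20.67 to 21.28 on the other liver arrays. Without that array, none of the 4 member probes that could be tested in liver (all but RYR1 and PRKAG3) differed between the lines at an adjusted p below 0.05. No spot of the 6 probes was marked as an outlier by the extraction software or saturated.

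Across tissues, RYR1, CAPN3, PRKAG3 and CAST were higher in GM than in liver and kidney, whereas ATP2A2 was lower in GM. For this comparison the median signals were quantile-normalized over all 48 arrays, put on the log2 scale and compared in limma with the pig as a random block. In GM against liver, 5 of the 6 probes were higher and 1 was lower at an adjusted p below 0.05. Over all 34501 probes tested, 35% were higher and 35.6% lower. In GM against kidney, again 5 of the 6 were higher and 1 lower, beside 35.2% of all probes higher and 39.9% lower. A call in either direction was thus common among all probes. Fewer cells of a type and less RNA per cell cannot be told apart in these tissue samples.

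**Figure D1:**
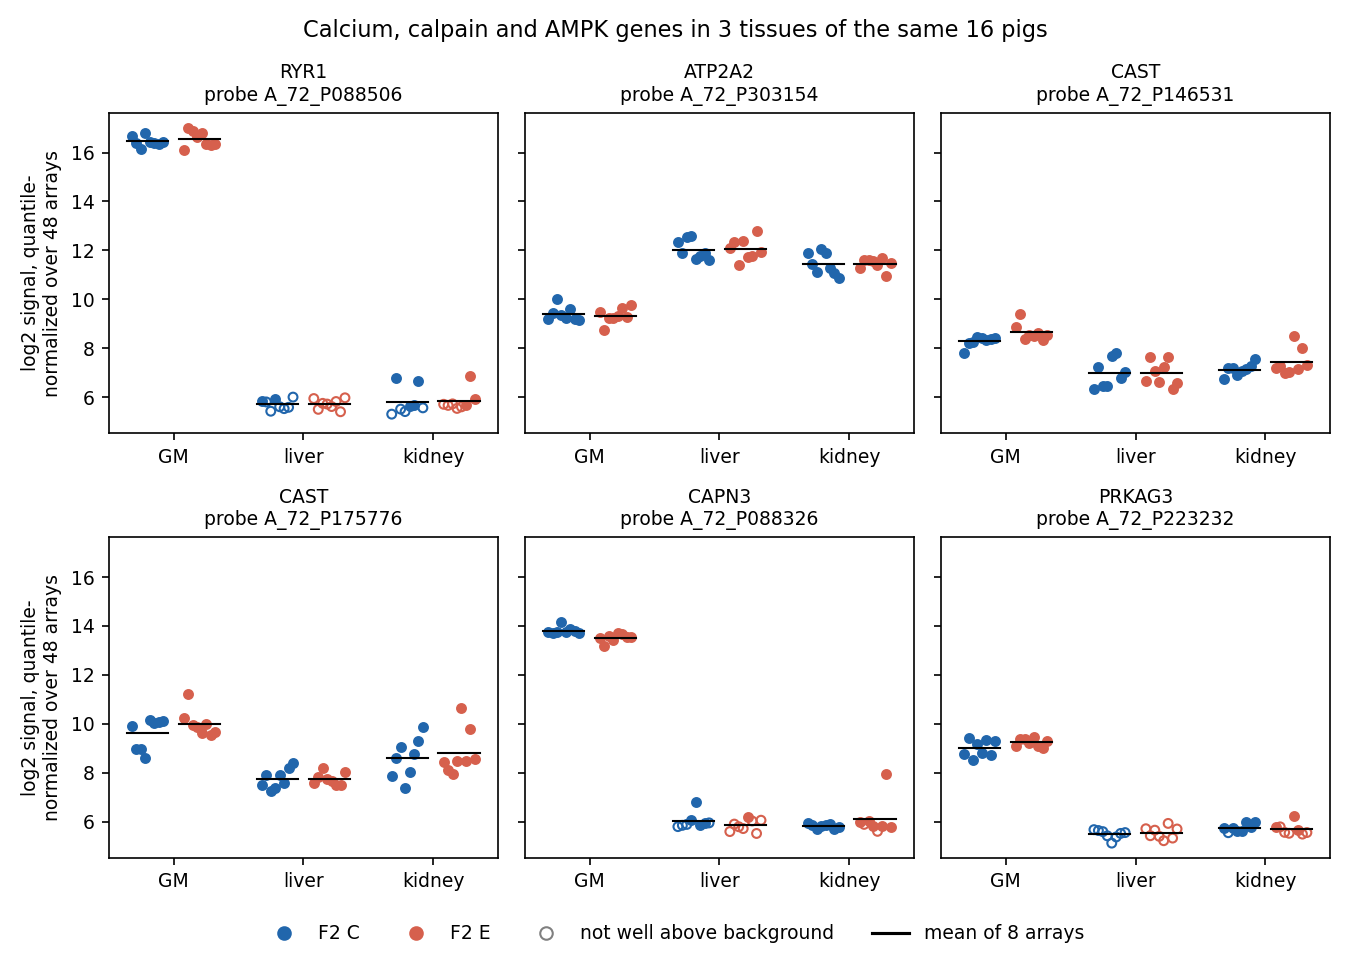
Log2 signal of the 6 probes, quantile-normalized over the 48 arrays, in GM, liver and kidney. Each point is 1 array (8 F2 C and 8 F2 E pigs per tissue), open points were not well above background, and black lines are group means. RYR1 and CAPN3 in GM lay far above every liver and kidney array, and ATP2A2 in GM lay below them.

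RYR1, the release channel, had a log2 signal of 16.12 at the lowest, 16.42 at the median and 17.02 at the highest in GM, against 5.41, 5.74 and 6.01 in liver and 5.31, 5.68 and 6.87 in kidney. All 16 GM arrays were above all liver and kidney arrays. The spots were well above background on 16 of 16 GM arrays, 2 of 16 liver arrays (both F2 C) and 7 of 16 kidney arrays. Since no liver array of F2 E reached that limit, its level there has only an upper bound, and in this line RYR1 was at least 1791-fold higher in GM than in liver. The fitted log2 ratio, with most liver and kidney signals near background, was 10.78 ± 0.12 (SE, n = 16 pigs) over liver and 10.67 ± 0.12 over kidney (adjusted p = 1.03e-51 and 1.56e-51, limma). With the software's background-corrected signal it was 13.74 over either tissue, so the direction is measured and the size is not settled.

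ATP2A2 was the only member lower in muscle. Its log2 signal in GM was 8.73 at the lowest, 9.30 at the median and 10.002 at the highest, against 11.41, 11.91 and 12.79 in liver and 10.86, 11.48 and 12.05 in kidney. The GM values overlapped with neither tissue, and all 16 pigs had less signal in GM than in both of their other tissues. The log2 ratio was -2.68 ± 0.12 over liver and -2.08 ± 0.12 over kidney (adjusted p = 6.45e-25 and 1.42e-20, limma). ATP2A2 was also 0.59 ± 0.12 higher in liver than in kidney (adjusted p = 4.29e-05, limma), in 14 of 16 pigs, with overlapping values.

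CAPN3, a calpain of muscle, had a log2 signal of 13.20 at the lowest, 13.70 at the median and 14.16 at the highest in GM. In liver it had 5.53, 5.90 and 6.83, and in kidney 5.61, 5.85 and 7.94. Every GM array was far above every array of the other tissues, in which the probe was well above background on 5 of 16 (liver) and 14 of 16 (kidney) arrays. The fitted log2 ratio was 7.72 ± 0.12 over liver and 7.70 ± 0.12 over kidney (adjusted p = 5.89e-45 and 7.75e-45, limma). With the software's background-corrected signal it was 9.91 and 9.80, so the size of these ratios depends on how signals near background are treated.

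Calpastatin differed less between GM and the other tissues than RYR1 and CAPN3 did. The median log2 signal of probe A_72_P146531 in GM was 8.42 (7.83 to 9.42), against 6.91 in liver (6.34 to 7.82) and 7.19 in kidney (6.74 to 8.51). That of probe A_72_P175776 in GM was 9.93 (8.62 to 11.20), against 7.71 in liver (7.25 to 8.39) and 8.54 in kidney (7.38 to 10.64). With either probe the GM values lay above all liver values and overlapped with kidney. The log2 ratio of GM over liver was 1.50 ± 0.14 and 2.05 ± 0.21, and that of GM over kidney 1.19 ± 0.14 and 1.098 ± 0.21 (adjusted p from 3.48e-13 to 8.64e-06, limma). Within pigs, GM exceeded kidney in 16 of 16 with the first probe and in 14 of 16 with the second. Between liver and kidney, the log2 ratio of the second probe was -0.95 ± 0.21 (adjusted p = 9.67e-05, limma) and that of the first -0.31 ± 0.14 (adjusted p = 0.0518, limma).

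PRKAG3, the γ3 subunit of AMPK, had a log2 signal of 8.52 at the lowest, 9.20 at the median and 9.48 at the highest in GM, against 5.13, 5.54 and 5.94 in liver and 5.50, 5.70 and 6.25 in kidney. The probe was well above background on all 16 GM arrays, on 10 kidney arrays and on 0 liver arrays. On this scale PRKAG3 was therefore at least 11.6-fold higher in GM than in liver (fitted adjusted p = 7.65e-38, limma), a bound for which each liver array entered with its own value or its dimmest signal above background, whichever was larger. Its log2 ratio of GM over kidney was 3.40 ± 0.08 (adjusted p = 1.21e-36, limma). Under the other signals and scalings the log2 ratio of PRKAG3 ran from 3.32, below that bound, to 6.28 over liver, and up to 5.49 over kidney.

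The exact sign-flip test over the 16 pigs gave 3.05e-05, the smallest p it can give, for all 6 probes in GM against liver and for 5 in GM against kidney, and 0.000641 for CAST probe A_72_P175776 in GM against kidney. In liver against kidney, 1 of the 6 probes was higher and 2 were lower at an adjusted p below 0.05, beside 33.5% and 36.6% of all probes. Besides ATP2A2 and CAST, PRKAG3 had a log2 ratio of -0.21 ± 0.08 there (adjusted p = 0.025, limma) while not above background in liver, and RYR1 and CAPN3 had -0.11 and -0.03 (adjusted p = 0.415 and 0.857). With the median signal scaled to the 75th percentile of each array, the direction in liver against kidney turned for RYR1, CAPN3, PRKAG3 and CAST probe A_72_P146531, and the median of all probes moved to 0.38.

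After normalization, single arrays carried the highest kidney values of the muscle genes. Normalized within kidney, CAPN3 was 8.48 in F2 E replicate 7 and at most 6.17 in the other F2 E pigs. RYR1 was 7.26 in the same array, 7.14 in F2 C replicate 2 and between 5.19 and 7.02 in the rest of F2 C. Before normalization, F2 E replicate 7 did not have the highest signal of either gene. Its CAPN3 signal was 83, against 118 in F2 E replicate 3. Its RYR1 signal was 49.5, against 173.5 in F2 C replicate 2 and 123 in F2 C replicate 7. In F2 E replicate 7, 2 of the 13 skeletal muscle markers (MYH7 and TNNI2) had their highest kidney value, and 4 of the 13 were well above background, the fewest of any kidney array. This array also had the fewest probes above background in kidney (25071) and, with F2 E replicate 5, the lowest median signal, 48. The part of the muscle markers and of the low signal in these values was not tested.

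Between the lines, no member differed in GM at an adjusted p below 0.05, and CAPN3 and 1 of the CAST probes came nearest. In the 25625 probes tested in GM, limma called 197, or 0.769%, at that threshold, and 5.71% had an unadjusted p below 0.01. Of the 6 member probes, 0 were called after adjustment, 1 (CAPN3) had an unadjusted p below 0.01, and 2 (CAPN3 and CAST probe A_72_P146531) had one below 0.05. The methods' t-test gave 1 (CAPN3, unadjusted p = 0.00283) below its threshold of 0.01 and 0 after Benjamini-Hochberg adjustment. Values of this comparison were normalized over the 16 GM arrays, and ratios are those of F2 E to F2 C.

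**Figure D2:**
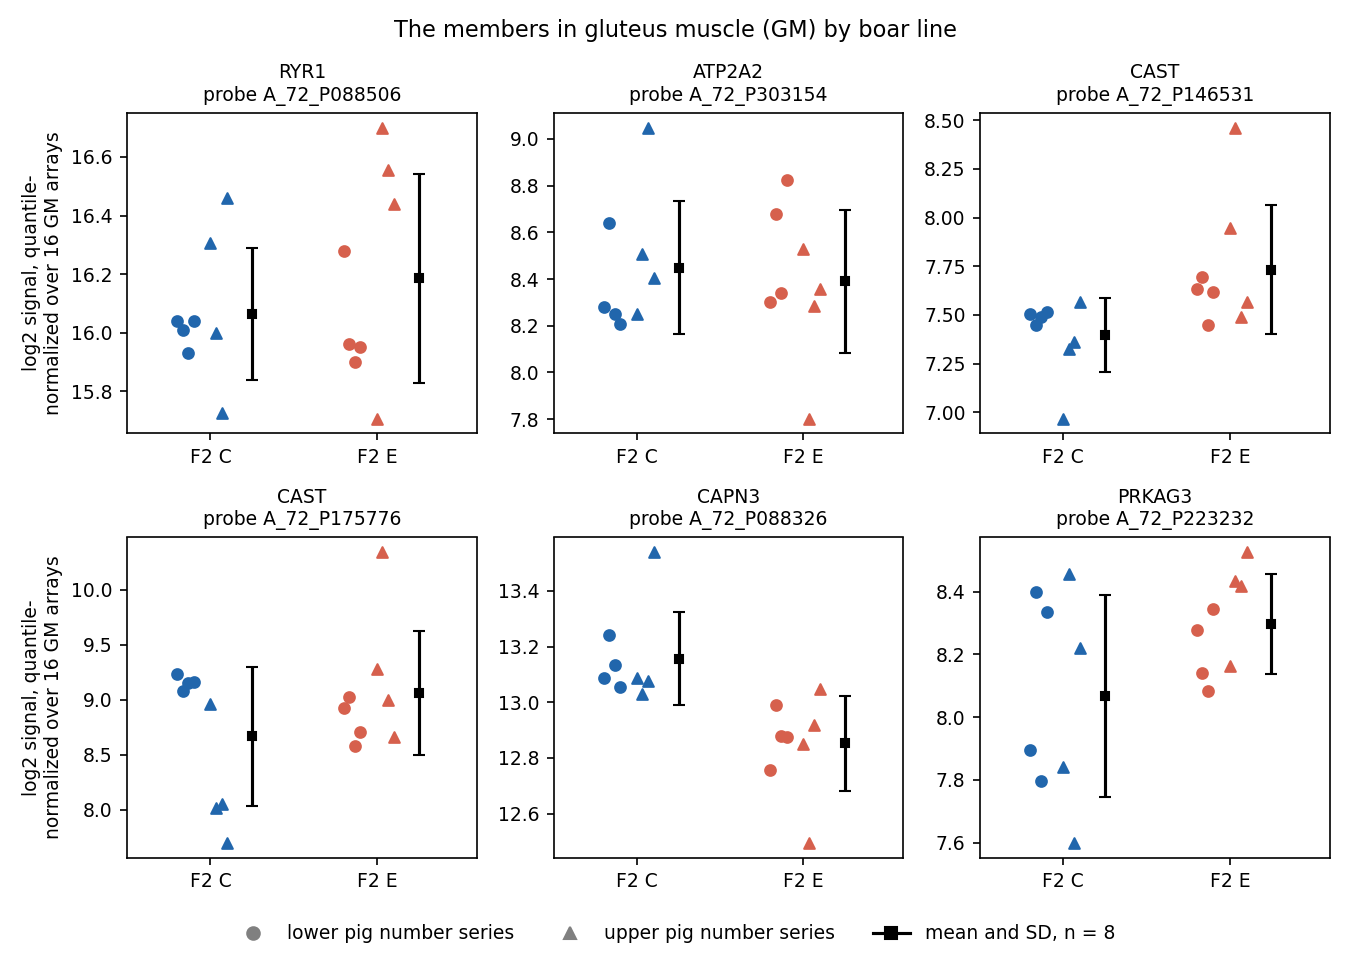
Log2 signal of the 6 probes in GM, quantile-normalized over the 16 GM arrays, by line. Circles are pigs of the lower and triangles of the upper number series, and squares with bars give the mean and SD of 8 pigs. The CAPN3 mean was lower in F2 E in both series, whereas CAST probe A_72_P175776 was low in 3 F2 C pigs of the upper series.

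CAPN3 had a log2 signal in GM of 13.03 at the lowest, 13.09 at the median and 13.54 at the highest in F2 C, against 12.49, 12.88 and 13.05 in F2 E. All 8 F2 E pigs lay below the F2 C median, and the groups overlapped only in that the highest F2 E pig was slightly above the lowest F2 C pig. CAPN3 thus had a log2 ratio of -0.30 ± 0.10 (SE, 8 against 8 pigs), with an adjusted p of 0.147 in limma. The exact permutation test of this gene alone gave 0.000311 (two-sided, unadjusted), where 0.000155 is the smallest p that 8 pigs against 8 allow.

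The CAPN3 ratio was negative in both number series. In the lower series the 4 F2 C pigs were at 13.06 to 13.24 and the 4 F2 E pigs at 12.76 to 12.99, with no overlap. In the upper series they were at 13.03 to 13.54 and 12.49 to 13.05. It was -0.25 ± 0.10 in the lower and -0.35 ± 0.17 in the upper series (adjusted p = 0.247 and 0.232, limma). With slide as a random block the adjusted p was 0.771. Leaving out single pigs gave log2 ratios of CAPN3 between -0.33 and -0.25. This CAPN3 probe was in the list of GM genes that the study selected by p-value on these same arrays, so its place there is not independent evidence.

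The mean of calpastatin, an inhibitor of calpains, was higher in F2 E with both probes, and neither passed after adjustment. Probe A_72_P146531 was at 6.97, 7.47 and 7.57 (lowest, median, highest) in F2 C and at 7.45, 7.62 and 8.46 in F2 E. The groups overlapped, and 7 of 8 F2 E pigs lay above the F2 C median. This gave a log2 ratio of 0.33 ± 0.14 (adjusted p = 0.237, limma), and the exact permutation p, unadjusted, was 0.00591.

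Probe A_72_P175776 was at 7.70, 9.02 and 9.23 in F2 C and at 8.58, 8.96 and 10.34 in F2 E, with a log2 ratio of 0.40 ± 0.27 (adjusted p = 0.481, limma, and exact permutation p = 0.207). Its median was slightly lower in F2 E although its mean was higher. In F2 C, 3 of the 4 pigs of the upper series were at 7.70 to 8.05 and the other 5 pigs at 8.96 to 9.23. The ratio of this probe was 1.14 ± 0.37 within the upper series and -0.35 ± 0.12 within the lower one (adjusted p = 0.0985 and 0.194, limma), so its direction turned between the series. With the first probe it was 0.56 ± 0.23 and 0.11 ± 0.10. The difference between the series was not tested, and each set of 4 pigs lay on a slide of its own.

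PRKAG3 was at 7.60, 8.06 and 8.46 in F2 C and at 8.08, 8.31 and 8.53 in F2 E. All 8 F2 E pigs lay above the F2 C median, with overlapping groups, since F2 C spread more widely (SD 0.32 against 0.16). The log2 ratio was 0.23 ± 0.13 (adjusted p = 0.390, limma, and exact permutation p = 0.0903), with 0.11 in the lower and 0.36 in the upper series.

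The calcium genes differed least. RYR1 was at 15.73, 16.02 and 16.46 in F2 C and at 15.71, 16.12 and 16.70 in F2 E, with a log2 ratio of 0.12 ± 0.15 (adjusted p = 0.710, limma, and exact permutation p = 0.419). ATP2A2 was at 8.21, 8.34 and 9.05 in F2 C and at 7.80, 8.35 and 8.82 in F2 E, with a log2 ratio of -0.06 ± 0.15 (adjusted p = 0.876, limma, and exact permutation p = 0.704). For either gene, 4 of the 8 F2 E pigs lay above and 4 below the F2 C median. The ATP2A2 ratio was 0.19 within the lower and -0.31 within the upper series.

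After normalization GM of F2 E replicate 2 stood apart, with the highest RYR1 (16.70) and CAST (8.46 and 10.34) of all 16 GM arrays. It also had the lowest CAPN3 (12.49) and ATP2A2 (7.80), and its median signal of 48 was the lowest. Before normalization its RYR1 signal was 48160, near the low end of the 16 GM arrays (46454 to 92970). Its CAST signals were then 175 and 588, against maxima of 260 and 658. CAPN3 (2486) and ATP2A2 (118.5) were the lowest before normalization too. Without this array, the log2 ratio was -0.25 for CAPN3, 0.23 and 0.21 for the CAST probes, 0.05 for RYR1 and 0.03 for ATP2A2 (all adjusted p at or above 0.201, limma). The ATP2A2 ratio thus changed sign, and the ratio of CAST probe A_72_P175776 fell from 0.40 to 0.21. The part of the low signal was not tested.

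In liver and kidney no member probe tested was called between the lines. In liver, where RYR1 and PRKAG3 were too rarely above background to be tested, 0 of the 4 remaining member probes were called, beside 0.0937% of all probes, and 0 had an unadjusted p below 0.05. The log2 ratios were 0.03 ± 0.20 for ATP2A2, -0.01 ± 0.22 and -0.00 ± 0.15 for CAST and -0.15 ± 0.13 for CAPN3 (smallest adjusted p = 0.807, limma). In kidney, 0 of the 6 probes were called, beside 0.0119% of all probes, and 0 had an unadjusted p below 0.05. There the log2 ratios were 0.04 ± 0.31 for RYR1, -0.01 ± 0.17 for ATP2A2, 0.34 ± 0.22 and 0.21 ± 0.40 for CAST, 0.36 ± 0.30 for CAPN3 and -0.07 ± 0.15 for PRKAG3 (adjusted p = 1.00 for all, limma). Without F2 E replicate 7, the CAPN3 ratio in kidney was 0.04. CAPN3 in liver and RYR1 and PRKAG3 in kidney could be tested through F2 C alone. The counts of arrays well above background were 4, 4 and 7 of 8 in F2 C, against 1, 3 and 3 in F2 E.

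**Figure D3:**
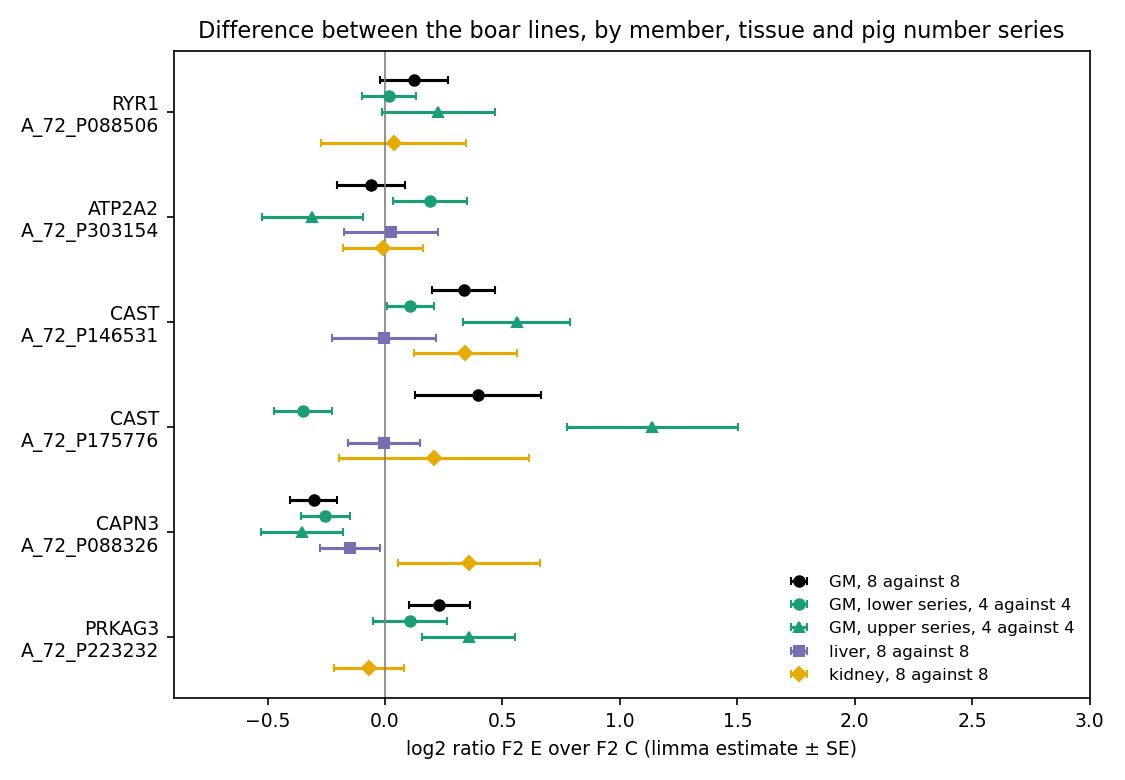
Ratio between the lines on the log2 scale (F2 E to F2 C, limma estimate ± SE) for each of the 6 probes in GM, within the lower and the upper pig number series in GM, in liver and in kidney. RYR1 and PRKAG3 have no liver value because they were not tested there. CAPN3 in GM was below 0 in both series, and CAST probe A_72_P175776 pointed in opposite directions in the 2 series.

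Liver offered a comparison within slides, since 2 of its slides held pigs of both lines, 2 against 2 on each, the first of barrows and the second of females, so slide and sex cannot be told apart there. With slide as a fixed block the log2 ratio was 0.34 for ATP2A2, -0.34 and -0.31 for CAST and -0.17 for CAPN3, with adjusted p from 0.533 to 0.716 in limma. These estimates rest on the 2 mixed slides alone, which held the lower series. In the upper series, where slide and line cannot be told apart, ATP2A2 was -0.28 and CAST 0.33 and 0.30, of the other sign. CAPN3 kept its sign there, but it was well above background on only 5 of 16 liver arrays. Within the first of these slides the ratios were 0.05, -0.29, -0.14 and -0.20, and within the second 0.62, -0.39, -0.48 and -0.14.

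Whether the difference between the lines depended on tissue was tested over the 48 arrays. For GM minus liver and for GM minus kidney, 0 of the 6 members were called at an adjusted p below 0.05, beside 0.122% and 0.0464% of all probes. The only member with an unadjusted p below 0.05 was CAPN3 in GM minus kidney, where the line ratio in GM was lower than that in kidney by a log2 difference of -0.57 ± 0.25 (unadjusted p = 0.0255, adjusted p = 0.799, limma). The ratio in kidney was 0.36 with and 0.04 without F2 E replicate 7. For sex, 0 of the 6 members and 0% of all probes were called for the interaction of line and sex in GM, and 0 members and 0% of all probes in liver and in kidney. The interaction with the smallest unadjusted p in GM was that of RYR1, at -0.42 ± 0.28 (adjusted p = 0.992, limma).

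Barrows and females were compared in GM with line as a covariate. None of the 6 members was called, with 0 at an unadjusted p below 0.05, beside 0.121% of all probes called. The log2 ratios of barrows over females were -0.16 ± 0.15 for RYR1, 0.06 ± 0.15 for ATP2A2, -0.15 ± 0.13 and -0.02 ± 0.28 for CAST, 0.05 ± 0.10 for CAPN3 and 0.01 ± 0.13 for PRKAG3.

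Among the pigs, the members varied together in GM in part. For the 10 pairs of the 5 genes, with CAST given by its brighter probe A_72_P175776, deviations from the line mean were correlated over the 16 pigs. RYR1 and ATP2A2 varied in opposite directions (Pearson r = -0.67, permutation p = 0.00474, adjusted over 10 pairs 0.0474, and Spearman rho = -0.61, permutation p = 0.0133, adjusted 0.0880). The r was -0.51 in the lower and -0.79 in the upper number series, and -0.57 without the 2 pigs farthest from the RYR1 median (F2 E replicates 1 and 2). In the lower series it was -0.0016 with the software's background-corrected signal and -0.30 without subtracting line means, against -0.84 and -0.82 in the upper series.

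ATP2A2 and CAST (r = -0.60, permutation p = 0.0147, adjusted 0.0490, rho = -0.59, permutation p = 0.0176, adjusted 0.0880) and CAST and CAPN3 (r = -0.62, permutation p = 0.00998, adjusted 0.0490, rho = -0.34, permutation p = 0.192, adjusted 0.384) were also inversely related. Without the 2 pigs farthest from the median, these r were -0.29 and -0.09, and F2 E replicate 2 was among those pigs in each case. Without that pig alone, r was -0.39 and -0.40. The relation of CAST and CAPN3 thus rests on those pigs, with r = -0.30 in the lower and -0.72 in the upper series. For ATP2A2 and CAST, r was -0.52 in the lower series, which holds neither of the pigs left out, and -0.69 in the upper one. With the software's background-corrected signal, 0 of the 10 pairs passed after adjustment, and with the other CAST probe 1 did (RYR1 and ATP2A2). The largest r among the remaining 7 pairs was that of RYR1 and PRKAG3, at 0.45 (permutation p = 0.0826, adjusted 0.207).

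**Figure D4:**
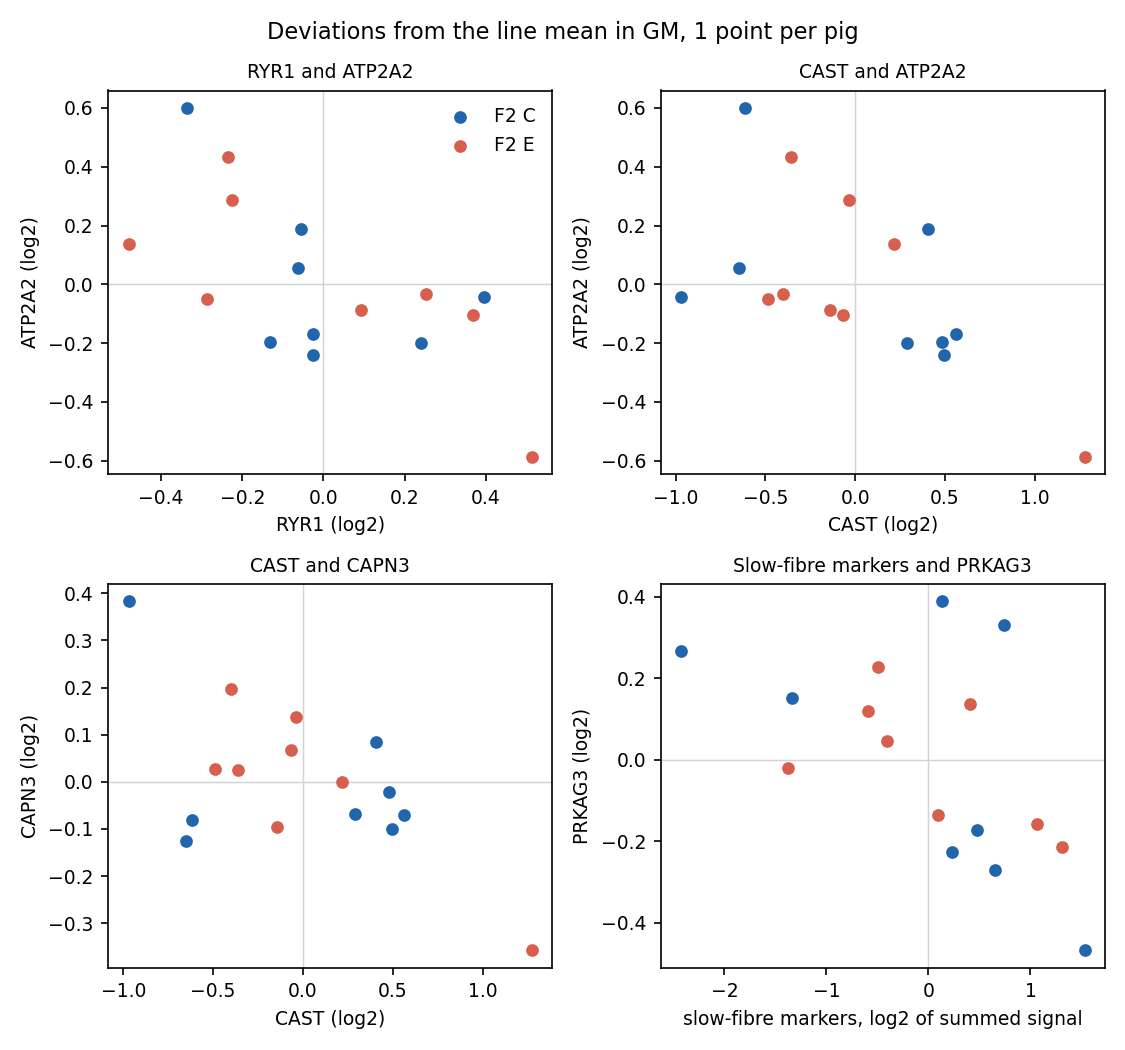
Deviations from the line mean of the log2 signal in GM, 1 point per pig (8 F2 C, 8 F2 E): RYR1 against ATP2A2, CAST (probe A_72_P175776) against ATP2A2 and against CAPN3, and the summed slow-fibre markers against PRKAG3. RYR1 and ATP2A2 ran in opposite directions (r = -0.67), and F2 E replicate 2 is the far point in the 3 plots of member pairs.

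The 2 CAST probes followed each other closely in kidney (r = 0.90, permutation p = 1e-05, the smallest that 100000 resamples can give, rho = 0.88, permutation p = 2e-05, and r = 0.84 without the 2 pigs farthest from the median). In GM r was 0.54 (permutation p = 0.0313, rho = 0.40, permutation p = 0.124, and r = 0.39 without 2 pigs), with 0.96 in the lower and 0.49 in the upper series. In liver r was 0.21 (permutation p = 0.432, rho = 0.34, permutation p = 0.205, and r = 0.30 without 2 pigs). These 3 p-values were not adjusted.

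The RNA of slow-fibre markers varied among the pigs. The summed signal of 6 slow-fibre markers (MYH7, MYL2, TNNI1, TNNT1, MYOZ2 and PLN), normalized over the 16 GM arrays, ranged from 16.70 to 20.65 on the log2 scale. The lines overlapped. PRKAG3 and these markers varied in opposite directions (r = -0.55, permutation p = 0.0262, adjusted over 6 probes 0.157, rho = -0.54, permutation p = 0.0338, adjusted 0.125), a relation that failed the adjustment. It was -0.53 in the lower and -0.65 in the upper series and -0.57 without the 2 pigs farthest from the median. RYR1 had r = -0.41 (permutation p = 0.110, adjusted 0.330, rho = -0.52, permutation p = 0.0417, adjusted 0.125), and ATP2A2, the pump of slow fibres, had r = 0.33 (permutation p = 0.217, adjusted 0.434). CAPN3 had r = 0.71 in the lower and -0.73 in the upper series, and -0.15 over all pigs. These relations were chosen after the values were seen.

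Marker lists of other cells overlapped between the lines in GM. The summed log2 signal of 9 adipocyte markers was 15.71 to 16.53 in F2 C and 15.57 to 17.21 in F2 E, and that of the 8 fast-fibre markers was 21.72 to 21.84 and 21.72 to 21.79. The 7 hepatocyte markers summed to 11.45 to 13.79 in F2 C and 11.97 to 14.34 in F2 E, with a positive log2 ratio for 7 of 7 and 0 called. Of the 3 heart markers with a probe, TNNI3 was well above background on 16 of 16 GM arrays (log2 ratio -0.53 ± 0.55, adjusted p = 0.662, limma), NPPA on 2 and NPPB on 0, and their sum was 9.85 to 13.67 in F2 C and 10.37 to 12.51 in F2 E.

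Of 2015 probes of other named genes measured on all 16 GM arrays, those whose deviations were most like those of RYR1 were HTT, MYH1 (a myosin of fast fibres) and TAS1R3, with r from 0.76 to 0.78 over the 16 arrays. For ATP2A2 they were MTX1, PON2 and KIT (0.84 to 0.85). For CAPN3 they were SOCS2, STAT5A and FTO (0.85 to 0.90), and for PRKAG3 they included HTT and MYH1 (0.77 and 0.64). For CAST they included ADAM17 and RAB14 with probe A_72_P146531 (0.86 and 0.80), and 2 probes of MEF2C with probe A_72_P175776 (0.90 and 0.87). These are the highest of many correlations over arrays that share slides, and are given without a test.

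The pathways around the members were sparsely covered. Of 44 genes of calcium release and uptake, 8 had a probe, among them RYR1 and ATP2A2, and in GM 5 had a positive and 3 a negative log2 ratio between the lines, with a median of 0.13 beside -0.02 for all probes. The smallest p among the others were those of FKBP1A, the FK506-binding protein that associates with RYR1, at 8.95 ± 0.21 (SD) in F2 C and 9.34 ± 0.29 in F2 E (log2 ratio 0.39 ± 0.13, adjusted p = 0.157, limma), and of the plasma membrane calcium pump ATP2B1 (0.16 ± 0.11, adjusted p = 0.453). None of the 8 was called in any of the 3 tissues.

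Of 17 genes of the calpain system, 6 had a probe, 3 with a positive and 3 with a negative ratio in GM and a median of -0.01. With CAST given by its brighter probe A_72_P175776 (adjusted p = 0.481, against 0.237 with the other probe), the smallest p after CAPN3 was that of CAPN7 (-0.24 ± 0.13, adjusted p = 0.389, limma), well above background on 11 of 16 arrays. Of 29 AMPK and glycogen genes, 4 had a probe, with a median of 0.02, and after PRKAG3 the catalytic subunit PRKAA2 had the smallest p (0.05 ± 0.16, adjusted p = 0.906). Of 15 genes of muscle proteolysis, 8 had a probe, 5 with a positive and 3 with a negative ratio and a median of 0.02. Among them the cathepsin inhibitor CSTB had a log2 ratio of -0.11 ± 0.10 (adjusted p = 0.587, limma). The smallest adjusted p of this list in GM was 0.124 (limma), that of a gene not reported here. None of these genes was called in GM, liver or kidney.

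Between tissues, 6 of the 8 calcium genes were higher and 2 lower in GM than in liver, beside 35% and 35.6% of all probes, and 7 were higher and 1 lower in GM than in kidney, beside 35.2% and 39.9%. SLN, the muscle inhibitor of SERCA pumps, had a mean log2 signal of 18.52 ± 0.25 (SD, n = 16) in GM and 8.61 ± 0.38 in kidney and was well above background on 0 of 16 liver arrays. CACNG1, a subunit of the muscle calcium channel, had log2 ratios of 8.49 ± 0.09 over liver and 8.58 ± 0.09 over kidney. The calpain subunit gene CAPNS1 went the other way, with -1.92 ± 0.13 over liver and -5.46 ± 0.13 over kidney (adjusted p = 3.88e-18 and 8.03e-37, limma). Of the 8 proteolysis genes, 1 was higher and 5 were lower in GM than in liver, and 2 were higher and 6 lower in GM than in kidney, against the same shares of all probes. FBXO32 (atrogin-1), a ubiquitin ligase of muscle, was higher in GM in both comparisons, by 4.41 ± 0.13 over liver and 2.45 ± 0.13 over kidney (adjusted p = 6.78e-33 and 3.49e-22, limma).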

How the data were processed

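RNA of GM, liver and kidney from 16 F2 pigs was labelled with Cy3 and hybridised to 48 Agilent porcine arrays of 1 colour. The deposited scanner files hold intensities per spot, without normalization between arrays; the authors quantified them with Agilent Feature Extraction, whose version is 10.5.1.1 per the file headers. The tables of the authors' own comparisons (log2 ratios, p-values) were not used.

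Median pixel intensities were brought to common quantiles, among the 16 arrays of each tissue or, to compare tissues, among all 48, and converted to log2. Control spots did not enter. A spot that the software had marked as an outlier became missing once the arrays were normalized, and replicate spots were averaged per probe. A probe was tested if 50% or more of the arrays in 1 group showed it well above background with a signal over 25, and each group kept 2 or more unmarked arrays. Tests were run with limma 3.58.1 in R 4.3.3, with Benjamini-Hochberg adjustment over all probes tested and calls at 0.05. On simulated data for the GM comparison (25625 probes), 87% of shifts of 1 and 99% of shifts of 2 on the log2 scale were recovered. Of the calls, 6.5% were false. The simulated arrays were independent and had no slide effect. The member ratios between the lines over all GM pigs were smaller than these shifts, so their recovery was not tested. Single probes were also tested by exact two-sided permutation over pigs, and correlations by 100000 permutations. Gene names came from RefSeq accessions in the array design. Some pigs of a line shared a sire or a dam, and the tests, the permutations among them, treated them as unrelated. The p-values therefore measure only the spread between these samples. The precision is limited by the number of arrays.

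The members, gene lists and tests were chosen with earlier results of these data known. All member probes are reported; of the other list genes, those called between lines or, with none called, the 2 with the smallest p in GM per list; and for each member the 3 most similar probes. Some genes that this rule names are not reported here. SLN, CACNG1, CAPNS1 and FBXO32 were chosen after their values were seen. In GM, the alternatives were the methods' t-test, other signals and scalings, filters, marked spots, sex, slide, number series, replicate number as a block and leaving out each pig.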

Additional observations from a re-analysis of the deposited data

Results flagged for a closer look

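A gap test that flags about 1 in 20 groups by chance was applied to 36 groups of 8 arrays (6 probes, 3 tissues, 2 lines). By this test, 7 member values, normalized within tissue, stood far from the rest of their group. In GM these were CAPN3 in F2 C replicate 4 (highest, 13.54), CAST probe A_72_P146531 in F2 C replicate 1 (lowest, 6.97) and CAST probe A_72_P175776 in F2 E replicate 2 (highest, 10.34). In kidney they were CAPN3 and RYR1 in F2 E replicate 7 (highest, 8.48 and 7.26) and PRKAG3 in F2 E replicate 5 (highest, 6.47), on the arrays with the lowest median signal in kidney. In liver it was CAPN3 in F2 C replicate 5 (highest, 6.92), the next value of the group being 6.26. No interaction of line with sex or tissue was called for a member.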

How the results depend on the processing

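No member was called between the lines, by sex or in an interaction under any alternative run. Of the values for single members between the lines in GM, 88 kept their direction and their side of the threshold, and 2, both within the lower number series, did not (ATP2A2 0.19, CAST probe A_72_P175776 -0.35). For barrows over females, CAST probe A_72_P175776 was 0.024 with the background-corrected signal. In liver, the median signal scaled to the 75th percentile turned ATP2A2 to -0.064, CAST to 0.14 and 0.056 and CAPN3 to 0.059. Removal of marked spots before normalization gave -0.020 for ATP2A2, the background-corrected signal 0.014 for CAST probe A_72_P146531, and the upper series -0.28 for ATP2A2 and 0.33 and 0.30 for CAST. In kidney, ATP2A2 was 8.65e-05 with the background-corrected signal and 0.12 in the lower series, and PRKAG3 was 0.024 with normexp, 0.20 with the 75th percentile and 0.017 in the upper series. In liver over kidney, the 75th percentile gave 5 calls and 0.61 for RYR1, 0.0062 for CAST probe A_72_P146531, 0.66 for CAPN3 and 0.54 for PRKAG3. For the interaction with tissue, the background-corrected signal gave 0.16 for CAPN3 and -0.052 for PRKAG3 in GM minus liver and -0.076 for RYR1 in GM minus kidney, and quantiles within tissues gave -0.0078 for CAST probe A_72_P146531. The background-corrected signal raised the log2 ratios of GM over liver and kidney to 13.74 and 13.74 for RYR1, 9.91 and 9.80 for CAPN3 and 6.28 and 5.49 for PRKAG3. GM over liver and GM over kidney each had 3 calls when probes had to be above background on all arrays, since fewer were then tested. Of the correlated pairs, 0 passed with the background-corrected signal and 1 with the other CAST probe. The r of RYR1 and CAPN3 was -0.16 with the background-corrected signal and -0.14 without subtracting line means, that of CAST and PRKAG3 -0.015 with the former, and that of CAPN3 and PRKAG3 -0.24 with the latter. The causes were not tested.

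With pigs left out singly, ATP2A2 ranged from -0.12 to 0.027 in GM, -0.082 to 0.12 in liver and -0.091 to 0.073 in kidney. CAST ranged from -0.095 to 0.10 and -0.073 to 0.081 in liver and, with probe A_72_P175776, from -0.052 to 0.39 in kidney, and RYR1 from -0.16 to 0.22 in kidney. The r ranged from -0.36 to 0.069 for ATP2A2 and PRKAG3, -0.0091 to 0.25 for CAPN3 and PRKAG3, -0.19 to 0.16 for CAST and PRKAG3, -0.33 to 0.45 for RYR1 and CAPN3 and -0.16 to 0.44 for RYR1 and CAST.

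Of the 8 pairs of F2 C and F2 E arrays with equal replicate numbers, 2 in GM, 6 in liver and 3 in kidney correlated above 0.1. In liver r ran from -0.09 to 0.58. There the numbers 1 to 4 were of the upper and 5 to 8 of the lower series in both lines, so equal numbers shared a series. With the replicate block, the ratio of CAPN3 in GM stayed -0.30 (adjusted p = 0.237, limma), and calls over all probes went from 197 to 51 in GM, 27 to 22 in liver and 4 to 0 in kidney. Of the 8 F2 C arrays, 1 in GM, 3 in liver and 1 in kidney correlated best with its own number. Over all GM probes, slide as a random block left 5 calls. Normexp on mean signals was not run, and normexp on median signals, the other CAST probe and leaving out pigs from the correlations were chosen after seeing the data. For RYR1 and PRKAG3 in liver and kidney, signals near background limit what can be seen.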
